A study of Mus musculus with 10 samples.

Results

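The 8 genes described here, *Wnk3*, *Olfml1*, *Nppb*, *Pla2g5*, *Dlec1*, *Gm10451*, *Arsg* and *Dnajc1*, were selected by symbol from the 55401 gene rows counted in bulk RNA-seq of B16F10 tumors. They were chosen because their counts were low in every *Mir25* KO tumor compared with NTC tumors, so the contrast between the groups chose them and is given below as a description. Calls of a test over all genes are given for that contrast only as background, and nothing about the 8 genes rests on them. B16F10 is a mouse melanoma line, and all 10 tumors grew in the flank of female C57BL/6J mice aged 9 to 12 weeks. Of these, 5 tumors came from *Mir25* KO cells and 5 from cells carrying a non-targeting control (NTC) guide. Every mouse, in both groups, received combination therapy (Comb), that is 1000000 irradiated GM-CSF-secreting B16 cells (GVAX) on days 1 and 4 and anti-PD-1 antibody at 10 mg/kg on days 6, 9 and 12, and tumors were taken on day 15. No untreated tumor enters the comparison, and treatment is shared by both groups. As injected dose, 50000 cells are given in the labels and 500000 in the methods. The methods describe CRISPR-Cas9 editing both with guides in a lentiviral vector, kept as stable populations, and with Cas9 protein, followed by isolation of single-cell clones. Which route, which guide, and whether one line or clone gave these tumors is not given in the sources used here, so 5 tumors of 1 line would share whatever is particular to that line. Only the tumor cells carried the edit, and the stroma and leukocytes of the host were wild type at *Mir25*.

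The genes were grouped by their counts and not by function. WNK3 is a kinase that, with the kinases encoded by *Oxsr1* and *Stk39*, controls cation-chloride cotransporters and so cell volume. *Nppb* encodes B-type natriuretic peptide, a hormone best known from the heart. *Pla2g5* encodes a secreted phospholipase A2, which releases fatty acids from membrane lipids, and *Olfml1* a secreted protein with an olfactomedin domain. *Arsg* encodes arylsulfatase G, a lysosomal enzyme of heparan sulfate breakdown. *Dnajc1* encodes a J-domain protein of the endoplasmic reticulum, where such proteins recruit the chaperone BiP. *Dlec1* was named for its loss in lung and esophageal cancers, and *Gm10451* is annotated as a long intergenic non-coding RNA. A microRNA acts by pairing of its seed, bases 2 to 8, with messenger RNAs, whose levels it lowers.

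The small RNA whose gene was edited is miR-25-3p, encoded at chr5:138165332-138165353 (minus strand, GRCm38.p6). Its mature sequence is shown with 2 of the miRNAs that share its seed, all from RefSeq, because that seed defines the matches searched in the 8 genes. Capitals mark the seed.

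miR-25-3p: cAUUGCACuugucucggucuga

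miR-92a-3p: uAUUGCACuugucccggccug

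miR-32-5p: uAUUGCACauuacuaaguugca

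In the same table miR-92b-3p, miR-363-3p and miR-367-3p carry this seed as well, so *Mir25* was 1 of several genes able to supply it. The 3 guides designed against *Mir25* are shown because they place the edit in the hairpin, which is 84 bases long. Capitals mark the bases that lie within miR-25-3p or its complement.

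mmu-miR-25-sg1: tgttgagaggcggagactt

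mmu-miR-25-sg2: cctgggCATTGCACTTGTCT

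mmu-miR-25-sg3: CCGAGACAAGTGCAATGcc

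The first guide covered none of the mature strand, whereas 14 bases of the second and 17 bases of the third lay in it. The seed match is GTGCAAT, searched on the sense strand of annotated 3' UTRs. Among 12890 tested genes with a 3' UTR, 8.24% held at least 1 match. Of the 7 protein-coding genes described here, *Wnk3* and *Dnajc1* held one, and *Olfml1*, *Nppb*, *Pla2g5*, *Dlec1* and *Arsg* held none. *Gm10451* has no UTR. The *Wnk3* match lay at chrX:151315296-151315302 (plus strand), at base 168 of a 3' UTR of 3181 bases. Each of 2 *Dnajc1* transcripts held a different match, at chr2:18206693-18206699 and chr2:18214391-18214397 (minus strand). Those 3' UTRs were 3100 and 3508 bases long. The matches are shown in capitals with 8 bases on each side, since they are the only ones found in these 3' UTRs.

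Wnk3-201: tagttaatGTGCAATttgcacaa

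Dnajc1-202: aatgtaagGTGCAATgtttgcaa

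Dnajc1-209: taattactGTGCAATgcttacat

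A match is a description of letters and not a site shown to be used. The direction of the contrast in both genes was fixed by the choice and says nothing of the match.

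Between 23243707 and 27006075 reads per KO tumor and between 11896643 and 28682130 per NTC tumor were counted on genes. NTC replicate 1 had the lowest total and stood apart from the other 9 libraries. There, 42.9% of reads fell on no annotated gene, compared with 17.5% to 28.2% elsewhere, and 33193 genes were detected, compared with 22192 to 25435. Fold changes of the 8 genes are given with and without it, as are those of several other genes that it moves. *Mir25* itself had 0 reads in every library of both groups, so these libraries give no check of the edit. The melanoma identity was checked with 8 genes (*Pmel*, *Mlana*, *Tyr*, *Tyrp1*, *Dct*, *Mitf*, *Sox10* and *Slc45a2*). All 8 were detected, and their summed level was 12227 to 20280 CPM (counts per 1000000) in the KO group and 11685 to 22262 in the NTC group.

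All 8 genes had lower CPM in every KO tumor than in any NTC tumor, NTC replicate 1 included. CPM is the count per 1000000 reads on genes after TMM scaling, and groups are given as mean ± SD with n = 5 tumors. The TMM factor was 0.628 for NTC replicate 1 and 0.9685 to 1.106 for the other libraries, which raised the CPM of NTC replicate 1. Over reads on genes without that factor, NTC replicate 1 lay below the highest KO tumor for *Nppb*, *Pla2g5*, *Gm10451*, *Arsg* and *Dnajc1*. For these genes the lack of overlap with it rests on how that library was scaled. Of the 15821 genes that passed the filter on low counts, 233 were lower in KO without overlap, a background of 1.47%, and the 8 genes are among them because they were chosen for it. The median log2 fold change was -1.75 over the 8 genes and 0.01 over all genes tested. In these bulk samples, fewer cells of a type and less RNA per cell cannot be told apart.

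*Wnk3* (chrX:151198078-151320152, plus strand, GRCm38) showed the widest separation. Its CPM in KO replicates 1 to 5 was 2.13, 1.06, 1.38, 2.23 and 1.82. In NTC replicates 1 to 5 it was 6.87, 7.88, 6.72, 8.46 and 7.46. NTC tumors were tightly grouped, NTC replicate 1 lay among them, and the lowest of them stood well above the highest KO tumor. The means were 1.73 ± 0.498 and 7.48 ± 0.719 CPM, a log2 fold change of -2.11 (SE 0.23) or 4.33-fold lower in KO. The counts behind these values were 28 to 62 reads in KO and 51 to 240 in NTC tumors. Among the 233 genes, *Wnk3* ranked 1 by the gap between the lowest NTC and the highest KO tumor, 1.56 on the log2 scale.

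Of the genes, 3 encode secreted proteins, which were lower by unequal amounts. *Nppb* (chr4:147985788-147987205, plus strand) had 13.1, 15.6, 12.1, 15.7 and 13.5 CPM in KO replicates 1 to 5. In NTC replicates 1 to 5 it had 24.7, 31.4, 27.4, 35.7 and 22.3 CPM. KO tumors were alike, while NTC tumors varied 1.60-fold among themselves and NTC replicate 5, not replicate 1, came closest to the KO range. The means of 14.0 ± 1.60 and 28.3 ± 5.33 CPM gave a log2 fold change of -1.02 (SE 0.14), 2.02-fold lower. Per length of exon sequence, *Nppb* was the most abundant of the 8 genes, at 36.2 CPM per kb in NTC tumors.

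*Pla2g5* (chr4:138799244-138863482, minus strand) had 0.902, 0.873, 0.842, 1.41 and 1.07 CPM in the KO replicates. In the NTC replicates it had 2.16, 4.79, 4.04, 5.86 and 3.64 CPM. NTC replicate 1 was the lowest control and lay about midway between the groups, with only 16 reads. The log2 fold change was -2.01 (SE 0.29), from means of 1.02 ± 0.234 and 4.10 ± 1.37 CPM. Without NTC replicate 1 it was -2.20 (SE 0.25). Although *Nppb* and *Pla2g5* share chromosome 4, they lie 9.12 Mb apart.

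*Olfml1* (chr7:107567446-107591094, plus strand) had 5.21, 5.24, 4.18, 2.45 and 5.69 CPM in the KO replicates. In the NTC replicates it had 15.6, 14.3, 12.7, 15.2 and 18.1 CPM. KO replicate 4 was the lowest tumor, NTC replicate 1 was second highest, and the ranges were far apart. The means were 4.55 ± 1.30 and 15.2 ± 2.01 CPM, a log2 fold change of -1.74 (SE 0.22) or 3.33-fold lower. *Olfml1* ranked 3 by gap among the 233 genes.

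*Arsg* and *Dnajc1*, which act in the lysosome and the endoplasmic reticulum, differed least between the groups. *Arsg* (chr11:109473374-109573330, plus strand) had 19.5, 16.6, 18.8, 18.3 and 15.2 CPM in the KO replicates. In the NTC replicates it had 29.0, 34.6, 36.1, 31.0 and 31.4 CPM. NTC replicate 1 was the lowest control, and still above every KO tumor. The means of 17.7 ± 1.75 and 32.4 ± 2.89 CPM gave a log2 fold change of -0.87 (SE 0.10), 1.83-fold lower.

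*Dnajc1* (chr2:18195654-18392830, minus strand) had 96.6, 79.1, 78.1, 78.4 and 85.8 CPM in the KO replicates. In the NTC replicates it had 135.9, 131.1, 119.6, 134.5 and 135.6 CPM. Here NTC replicate 1 was the highest control. The means were 83.6 ± 7.91 and 131 ± 6.86 CPM, a log2 fold change of -0.65 (SE 0.08), 1.57-fold lower. With 1009 to 3993 reads per tumor, *Dnajc1* had the deepest counts of the 8 genes. Its coefficient of variation was 9.45% in KO and 5.22% in NTC tumors, the lowest of the 8 in each group.

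*Dlec1* and *Gm10451* were read from few reads in KO tumors, 15 to 38 and 51 to 83. *Dlec1* (chr9:119102478-119148246, plus strand) had 1.48, 1.44, 0.977, 1.30 and 0.667 CPM in the KO replicates, the last from 15 reads. In the NTC replicates it had 3.91, 3.09, 4.04, 5.12 and 3.75 CPM. The ranges did not overlap and NTC replicate 1 lay in the middle of the controls. The log2 fold change was -1.76 (SE 0.27), from 1.17 ± 0.344 and 3.98 ± 0.737 CPM.

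*Gm10451* (chr12:76444497-76451336, plus strand) had 2.21, 3.15, 2.63, 1.84 and 2.89 CPM in the KO replicates. In the NTC replicates it had 4.85, 9.29, 11.3, 9.15 and 8.36 CPM. As with *Pla2g5*, NTC replicate 1 was the control nearest to the KO tumors. The log2 fold change was -1.76 (SE 0.25) with all tumors and -1.94 (SE 0.19) without NTC replicate 1. The groups had 2.54 ± 0.525 and 8.59 ± 2.35 CPM.

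**Figure D1:**
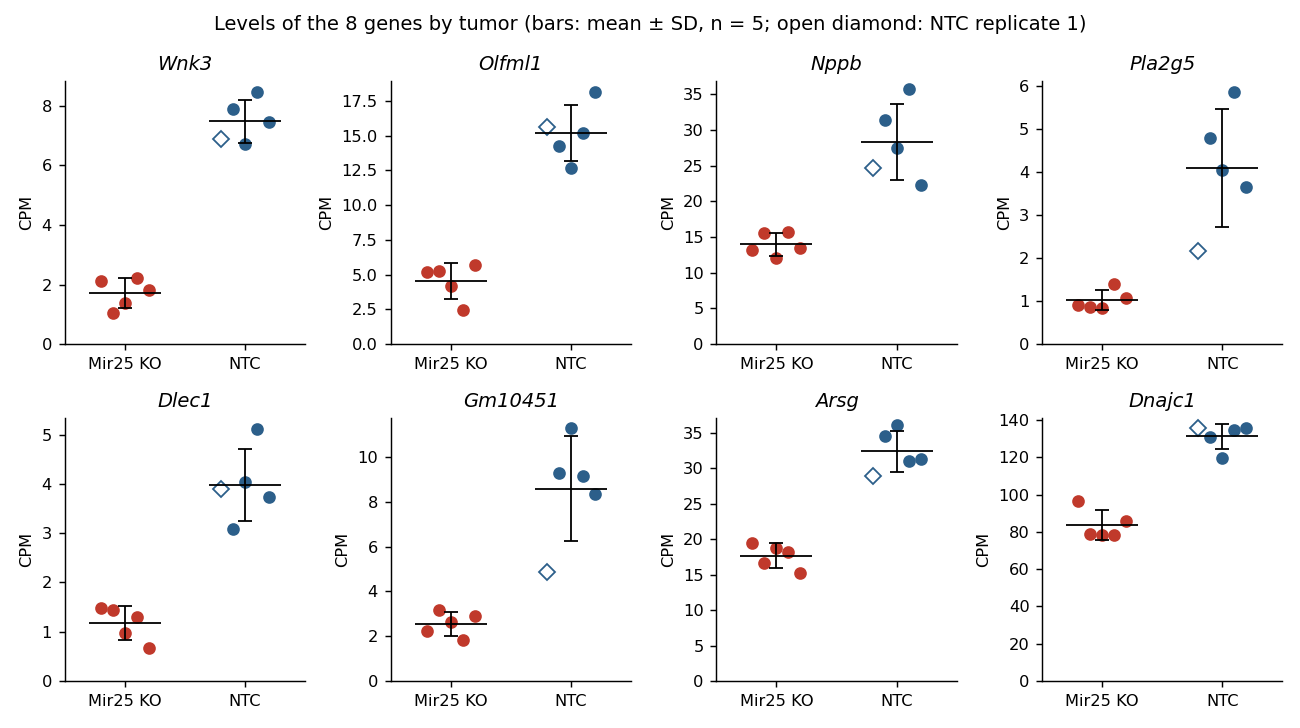
CPM of each gene (vertical axis, linear, starting at 0) in 5 *Mir25* KO and 5 NTC tumors, with 1 point per tumor, horizontal lines at the mean and bars for ± 1 SD. In every panel the KO points lie below all NTC points, and NTC replicate 1, the open diamond, is the lowest control for *Pla2g5* (2.16 CPM), *Gm10451* (4.85 CPM) and *Arsg* (29.0 CPM).

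Levels were compared between genes per length, as CPM per kb of exon sequence. In NTC tumors the order of mean levels was *Nppb* (36.2), *Dnajc1* (11.3), *Olfml1* (9.01), *Arsg* (8.30), *Gm10451* (3.44), *Pla2g5* (1.421), *Wnk3* (0.706) and *Dlec1* (0.594). The NTC ranges of *Dnajc1* and *Olfml1*, of *Olfml1* and *Arsg*, of *Gm10451* and *Pla2g5*, of *Pla2g5* and *Wnk3* and of *Wnk3* and *Dlec1* overlapped, both pairs with *Pla2g5* through NTC replicate 1 alone. Within each NTC tumor the first gene of the pair was nevertheless the higher one, except for *Olfml1* and *Arsg*, whose order changed between tumors and which did not differ beyond their spread. In KO tumors the order was *Nppb* (17.9), *Dnajc1* (7.18), *Arsg* (4.53), *Olfml1* (2.70), *Gm10451* (1.02), *Pla2g5* (0.353), *Dlec1* (0.175) and *Wnk3* (0.163). Thus *Wnk3* was the lowest of the 8 genes in KO tumors, though level with *Dlec1*, whose range it overlapped.

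The genes were lower in KO under every fit that was run, a sign that the choice of genes without overlap all but fixes. Fold changes without NTC replicate 1 were -2.17 for *Wnk3*, -1.76 for *Olfml1*, -1.10 for *Nppb*, -1.80 for *Dlec1*, -0.94 for *Arsg* and -0.67 for *Dnajc1* on the log2 scale. All 6 were as large as with it or larger. With the leukocyte score (below) in the fit, values ran from -2.01 for *Wnk3* to -0.67 for *Dnajc1*. When the summed reads of the 8 melanoma genes served as library size, every gene was closer to 0, from -1.90 for *Wnk3* to -0.46 for *Dnajc1*. That scaling raised the median of all genes to 0.20. Per 1000000 melanoma gene reads, 69 of the 15821 genes were lower in KO without overlap (0.436%), and 7 of the 8 genes are among them, having been chosen for no overlap in CPM. The exception was *Dnajc1*, at 3852 to 7021 in KO and 5888 to 11633 in NTC tumors.

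**Figure D2:**
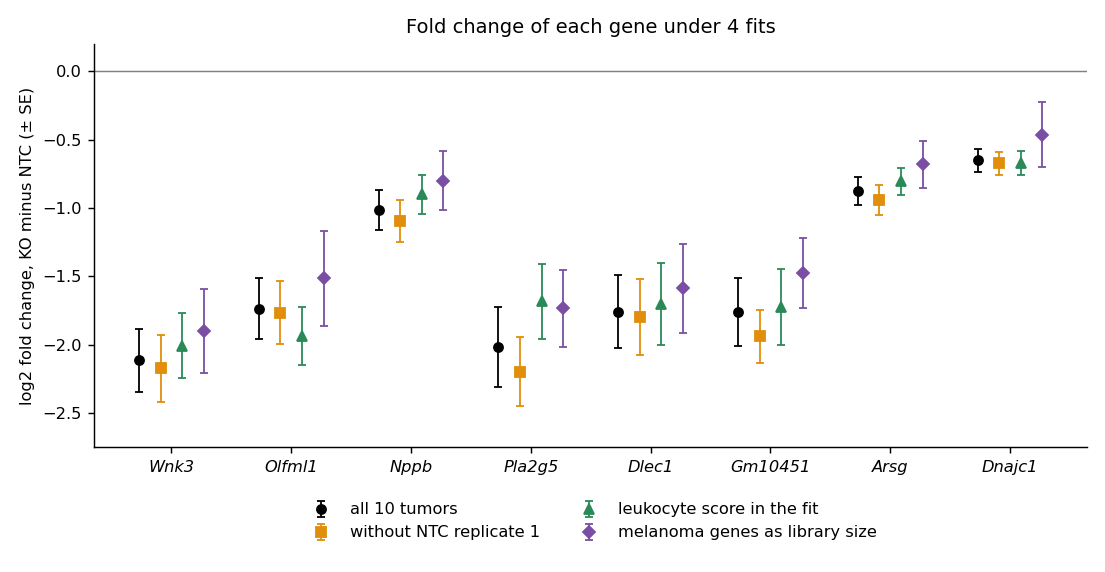
Log2 fold change (KO minus NTC, vertical axis, ± SE) of each gene under 4 fits of edgeR: all 10 tumors, without NTC replicate 1, with the leukocyte score as a covariate, and with melanoma gene reads as library size. All 32 points lie below 0, from -2.20 (*Pla2g5* without NTC replicate 1) to -0.46 (*Dnajc1* with melanoma gene reads as library size).

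Counts of calls for this contrast are given as background, since the genes were chosen on it. The quasi-likelihood test of edgeR, at a Benjamini-Hochberg adjusted p under 0.05 and a log2 fold change beyond 1, called 2 genes lower in KO, *Wnk3* and *Olfml1*, and both are among the 8 genes. That is 0.0126% of the genes tested. No gene was called lower with melanoma gene reads as library size or with replicate number as a block. The same held without KO replicate 3 or 5 or any of NTC replicates 2 to 5. Without the fold threshold 4 genes were called lower (0.0253%), the same 2 with *Arsg* and *Dnajc1*. Without NTC replicate 1 the first rule called 15 of 16078 genes lower (0.0933%), of which 6 belong to the 8 genes, *Arsg* and *Dnajc1* being below the fold threshold. At an unadjusted p under 0.05, 1400 genes (8.85%) differed in either direction and included the 8 genes. DESeq2 called 72 genes lower, including 6 of the 8.

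The genes were compared with leukocyte content, which varied widely among tumors of either group. The choice of the genes rested on the group contrast, but it was made with earlier results of these data known. The leukocyte score is the mean log2 CPM of *Ptprc*, *Cd53*, *Laptm5*, *Coro1a*, *Lcp1*, *Itgb2*, *Arhgdib*, *Rac2*, *Cd52* and *Was*. It was 6.93, 7.70, 6.05, 5.87 and 7.95 in KO replicates 1 to 5 and 7.58, 4.92, 6.13, 4.85 and 6.51 in NTC replicates 1 to 5. The ranges overlapped, and NTC replicate 1 was above 3 of the 5 KO tumors. The mean was higher by 0.90 in KO (two-sided exact permutation p = 0.214, adjusted p = 0.410 over 10 cell type lists). Without NTC replicate 1 the difference was 1.26 (exact permutation p = 0.0952).

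None of the 8 genes passed the test for a relation with the leukocyte score among tumors of a group. In edgeR's fit of group and score, 5967 of 15821 genes were called at an adjusted p under 0.05, a background of 37.7%, and at an unadjusted p under 0.05 the fit gave 7331. Of the 8 genes, 1 had an unadjusted p under 0.05, *Pla2g5*, and DESeq2 called none, beside 41.1% of all genes. The slope is the change in log2 CPM per unit of score. Its median size was 0.10 over the 8 genes and 0.17 over all genes tested. All 10 genes of the leukocyte list were called, as the score is made from them, and *Ptprc* had a slope of 1.18. Of the 8 melanoma genes, all had slopes below 0 (median -0.29) and 6 were called. Choosing genes whose groups do not overlap favours genes that are steady within groups, and this by itself favours small slopes. For 7 of the 8, fewer genes of like level had a smaller SD within groups than had a larger one, from 11.9% for *Dnajc1* and 12.2% for *Arsg* to 42.8% for *Nppb*. For *Olfml1* it was 58.8%.

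With all tumors *Pla2g5* had the largest slope of the 8, -0.31 (SE 0.13, with an edgeR adjusted p of 0.0770). It had -0.24 without NTC replicate 1, beside 0.25 for *Olfml1*. Its highest CPM among controls, 5.86, was in NTC replicate 4, which had the lowest leukocyte score, and its lowest, 2.16, in NTC replicate 1, which had the highest. It was called without KO replicate 3 (beside 33.6% of all genes tested), and in a fit with no group term (edgeR adjusted p = 0.0236, beside 36.8%). With no group term the slope also takes up the group difference. *Olfml1* had a slope of 0.19 (SE 0.10, edgeR adjusted p = 0.164), upward in the KO tumors, where KO replicate 4 had both the lowest score and the lowest *Olfml1*. Without that tumor the slope of *Olfml1* was 0.09. *Wnk3* had -0.12 (SE 0.11, adjusted p = 0.442) and *Nppb* -0.11 (SE 0.07, adjusted p = 0.203) in edgeR. For *Arsg*, *Dlec1*, *Gm10451* and *Dnajc1* the slopes lay between -0.08 and 0.02 (edgeR adjusted p from 0.233 to 0.830). The sign of 3 of these slopes turned when 1 tumor was left out. *Gm10451* moved from -0.04 to 0.13 without NTC replicate 1. *Dlec1* moved from -0.06 to 0.03 without KO replicate 5 and to 0.02 without NTC replicate 4, and *Dnajc1* from 0.02 to -0.01 without NTC replicate 1. *Wnk3* was closest to 0 without KO replicate 2, at -0.07, and *Nppb* without NTC replicate 4, also at -0.07.

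The size of the contrast is given next for tumors of like leukocyte content. Its direction was fixed by the choice of genes without overlap, so only the ratios are described. For each NTC tumor within the range of the KO scores, the KO tumor nearest in score was taken. NTC replicate 1 (7.58) was set beside KO replicate 2 (7.70), with ratios of NTC to KO from 1.54 for *Gm10451* to 6.46 for *Wnk3*. NTC replicate 3 (6.13) was set beside KO replicate 3 (6.05), with 1.53 for *Dnajc1* to 4.87 for *Wnk3*. NTC replicate 5 (6.51) and KO replicate 1 (6.93) gave 1.40 for *Dnajc1* to 4.04 for *Pla2g5*. Single tumors are compared here, so these ratios carry no error. Between the highest and the lowest tumor of a group, the leukocyte genes spanned a median of 5.00-fold in KO and 8.44-fold in NTC tumors, and the 8 genes 1.69-fold and 1.52-fold. No such span was taken over all genes, so this comparison does not show whether the 8 genes were unusually steady.

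**Figure D3:**
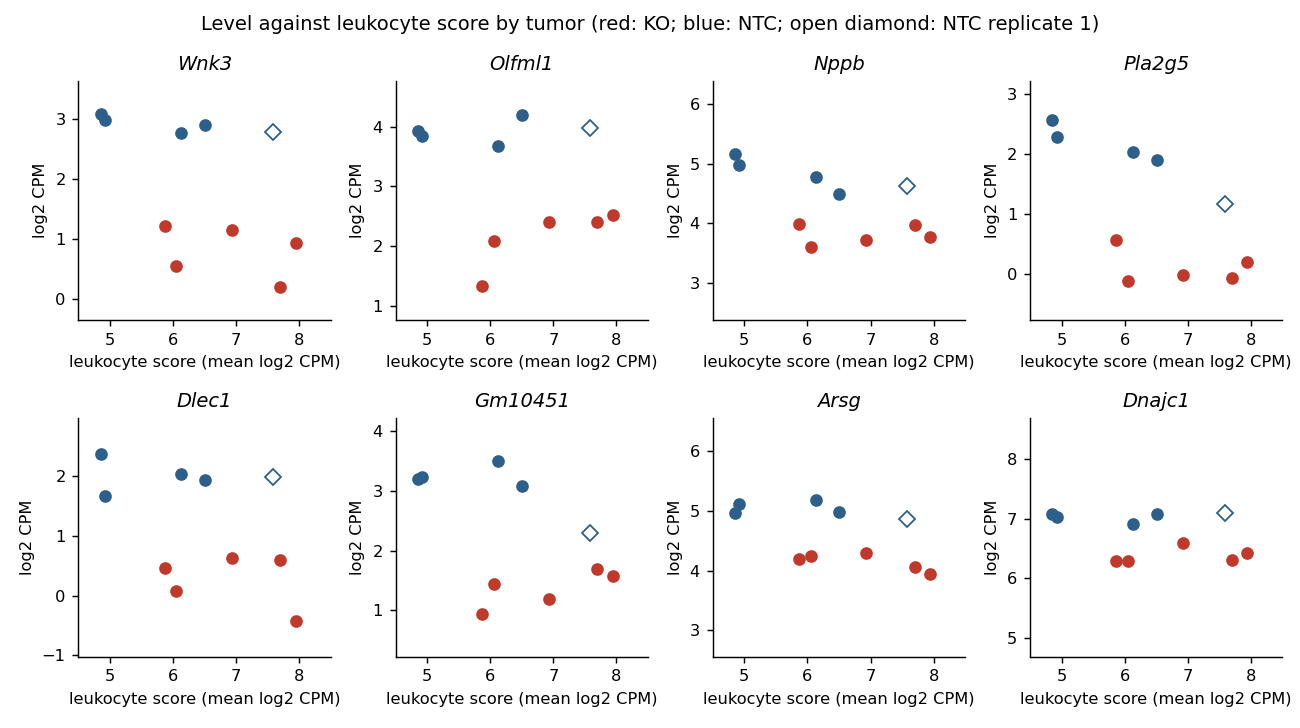
Log2 CPM of each gene (vertical axis, 4 log2 units in every panel) against the leukocyte score of the tumor (horizontal axis, mean log2 CPM of 10 genes), with KO tumors in red and NTC tumors in blue. Blue points lie above red ones because the genes were chosen for it, and within a color, with all tumors, *Pla2g5* has the steepest slope (-0.31 per unit of score).

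Other cell content also moved between tumors. Over 10 cell type lists, none differed between groups at an adjusted exact permutation p under 0.05 (lowest adjusted p 0.410). The melanoma score was 10.1 ± 0.306 in KO and 10.2 ± 0.389 in NTC tumors (exact permutation p = 0.627). Skeletal muscle genes summed to 2.36 to 191.8 CPM in KO and 1.30 to 4.58 CPM in NTC tumors, all 7 of them being detected in each group, and their score was higher by 2.58 in KO (exact permutation p = 0.0556). Without NTC replicate 1 the muscle, keratinocyte and neutrophil scores were higher in every KO tumor than in any of the 4 controls (exact permutation p = 0.0159 for each, the smallest possible, and adjusted p = 0.0529). For keratinocytes the lowest KO score, -3.321, was almost level with the highest control, -3.324. Keratinocyte genes summed to as little as 0.178 CPM in KO and 0 CPM in NTC tumors, where the prior count sets the score. The part of these cells in the 8 genes was not tested. For the melanoma score, 34.8% of genes were called in a fit with group, and none of the 8. Their slopes ran from -0.40 (SE 0.33) for *Olfml1* to 0.72 (SE 0.46) for *Pla2g5*, and the lowest adjusted p in edgeR was 0.138, for *Arsg*.

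Variation of the 8 genes within groups was compared pair by pair. Over the 28 pairs, the correlation of log2 CPM across 10 tumors after removal of the group means ran from -0.45 (*Olfml1* and *Arsg*) to 0.71 (*Nppb* and *Pla2g5*), with a median of 0.08 and 16 above 0. Within a tumor the 8 genes share a library and its total count, and the values are descriptions. Outside the 8 genes, the 5 with the profile most like their mean over the 10 tumors were *Pfkp* (r = 0.977), *Tpm1* (r = 0.970), *Zfp445* (r = 0.959), *Ano10* (r = 0.956) and *Nmt2* (r = 0.954). Their fold changes ran from -0.66 for *Pfkp* to -0.33 for *Nmt2* on the log2 scale. By the gap between groups, the 5 highest genes other than the 8 were *Slco1a4*, *Gm9732*, *AC160336.1*, *Zswim5* and *Cdh15*. Each of these had a mean below 1 CPM in KO tumors, from 0.0328 for *Gm9732* to 0.762 for *Zswim5*.

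Genes of the same families and pathways were examined next, since they were not used in the choice. Of 64 other genes on 6 lists, 48 passed the filter, and edgeR called none in either direction (lowest adjusted p 0.278). At an unadjusted p under 0.05, 3 were lower and 2 higher, beside 768 lower and 632 higher (8.85% in all) of the 15821 genes tested, and DESeq2 called 1. The 3 lower ones, *Klhl3*, *Oxsr1* and *Stk39*, are on the list of WNK kinases, their targets and cotransporters, which was not tested as a list. *Klhl3*, whose product marks WNK kinases for degradation, had 1.44, 0.722, 0.404, 0.829 and 1.47 CPM in KO replicates 1 to 5 and 3.50, 1.74, 2.24, 3.38 and 1.91 CPM in NTC replicates 1 to 5. The groups did not overlap, and counts were 12 to 83 reads. Its log2 fold change was -1.38 (SE 0.39, edgeR adjusted p = 0.278), and DESeq2 gave -1.39 with an adjusted p of 0.0418. *Oxsr1* had 66.7 ± 6.94 CPM in KO and 86.7 ± 10.5 CPM in NTC tumors, a log2 fold change of -0.38 (SE 0.11, edgeR adjusted p = 0.278), and -0.48 (SE 0.08, edgeR adjusted p = 0.0613) without NTC replicate 1. *Stk39* had -0.26 (SE 0.10) on the same scale. The cotransporter gene *Slc12a2* was higher by 0.51 (SE 0.19) without passing the adjusted threshold in edgeR. The other WNK kinase genes had values nearer 0, and *Wnk1* had 0.20 (SE 0.22), *Wnk2* 0.33 (SE 0.33) and *Wnk4* -0.29 (SE 0.39). Without NTC replicate 1 these were 0.36 (SE 0.17), 0.52 (SE 0.31) and -0.43 (SE 0.41). *Slc12a1* and *Slc12a3* did not pass the filter.

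For natriuretic peptides, 5 of 8 other genes passed the filter, with a median log2 fold change of 0.21. *Nppa*, the atrial peptide, and *Nppc* had a mean of 0 CPM in KO tumors and 0.108 and 0.0432 CPM in NTC tumors, below the filter. The receptors *Npr1*, *Npr2* and *Npr3* had log2 fold changes of 0.21 (SE 0.60), 0.31 (SE 0.22) and 0.15 (SE 0.51). Without NTC replicate 1, *Npr1* had 0.77 (SE 0.51), and *Mme*, which encodes a peptidase of natriuretic peptides, moved from 0.03 (SE 0.73) to 1.17 (SE 0.44). Of 11 other genes of secreted phospholipases A2 and their receptor, 5 passed. *Pla2g2e* had 25.8 ± 3.48 CPM in KO and 29.3 ± 2.83 CPM in NTC tumors, and *Pla2r1*, the receptor, had -0.05 (SE 0.17). *Pla2g2d* had a log2 fold change of 1.56 (SE 0.75) at mean levels below 1 CPM in both groups. Of 9 other olfactomedin genes, 5 passed, with *Olfml3* at 0.85 (SE 0.44), *Olfml2b* at 0.80 (SE 0.56), *Olfm1* at 0.32 (SE 0.36) and *Olfml2a* at 0.07 (SE 0.90). These were 1.13, 1.31, 0.61 and 1.37 without NTC replicate 1. All 4 rose with the leukocyte score within groups, from 0.53 per unit for *Olfm1* (edgeR adjusted p = 0.000908) to 1.32 for *Olfml2a*. For *Olfm2* the log2 fold change was -0.81 (SE 0.42) at mean levels of 0.395 CPM in KO and 0.701 CPM in NTC tumors, without overlap.

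Among sulfatases and their activators, 12 of 13 other genes passed the filter, with log2 fold changes from -0.26 for *Sulf1* to 0.48 for *Galns*. The low end rested on NTC replicate 1, without which *Sulf1* had 1.23 (SE 0.74) and *Arsi* moved from -0.19 to 0.65. *Sgsh* and *Ids*, which like *Arsg* act in glycosaminoglycan breakdown, had 0.18 (SE 0.12) and 0.36 (SE 0.15), on the other side of 0 from *Arsg*. All 9 other J-domain and chaperone genes of the endoplasmic reticulum passed, and they lay near 0, from -0.18 (SE 0.11) for *Sec63* to 0.07 (SE 0.12) for *Sil1*. *Hspa5*, which encodes BiP, had 873.7 ± 66.3 CPM in KO and 891.4 ± 73.0 CPM in NTC tumors.

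The genes nearest to each of the 8 on the chromosome were examined as well. Up to 2 genes on each side within 500 kb gave 31 neighbours that passed the filter. With all tumors, edgeR and DESeq2 called none lower (lowest edgeR adjusted p 0.239). At an unadjusted p under 0.05 in edgeR, 4 were lower and 1 higher. That is a larger share than the 8.85% over all genes (768 lower and 632 higher), and the difference in share was not tested. The median log2 fold change of the 31 was -0.06, beside 0.01 over all genes tested, and 21 of them lay below 0. None was lower in KO without overlap, beside 1.47% of all genes, so that 0 of 31 is near the background. With NTC replicate 1 left out, 6 of the 31 had an unadjusted p under 0.05, beside 3230 of 16078 genes tested, a like share. *Vill*, 31.0 kb from *Dlec1*, had 59.8 ± 5.68 CPM in KO and 84.8 ± 14.6 CPM in NTC tumors, a log2 fold change of -0.51 (SE 0.13, edgeR adjusted p = 0.239). Without NTC replicate 1 it had -0.64 (SE 0.09, edgeR adjusted p = 0.0293), past the adjusted threshold but not the fold threshold. *Oxsr1*, named above as a partner of WNK kinases, is also a neighbour of *Dlec1*, at 90.2 kb. *Ppfibp2*, 4.11 kb from *Olfml1*, had -0.37 (SE 0.12), and *Wipi1*, next to *Arsg*, -0.36 (SE 0.15). *Hspa2*, near *Gm10451*, had 0.48 (SE 0.17). Around *Wnk3* the 4 neighbours lay between -0.14 (*Fgd1*) and 0.50 (*Gm6451*), and next to *Nppb*, *Clcn6* had -0.26 (SE 0.20). *Gm13349*, a pseudogene within *Dnajc1*, had -0.68 (SE 0.40) from mean levels below 1 CPM.

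**Figure D4:**
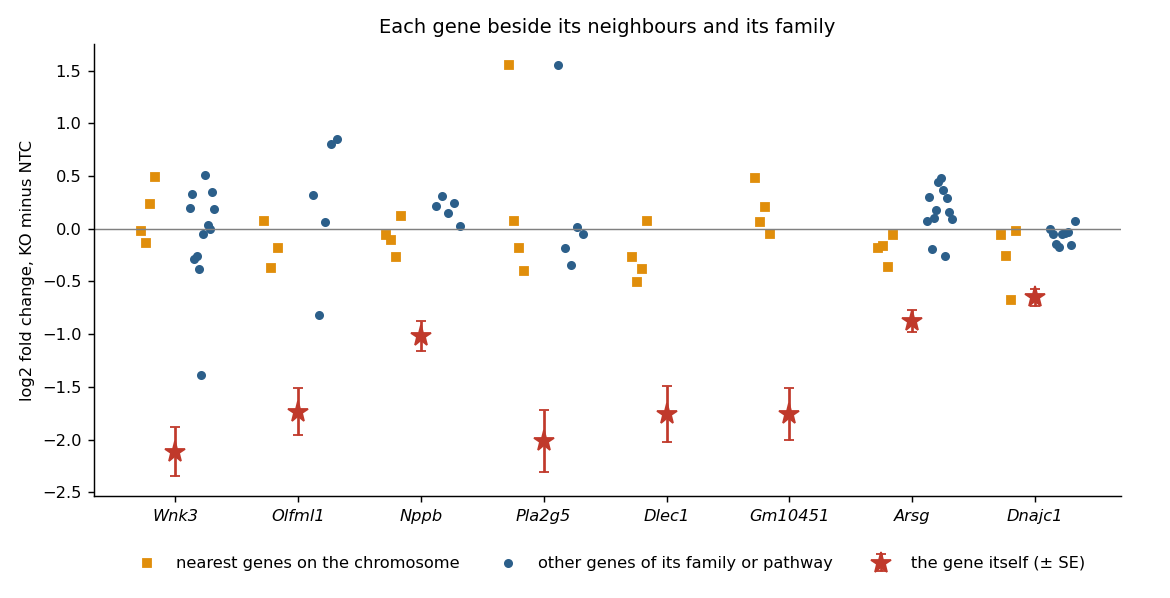
Log2 fold change (KO minus NTC, vertical axis) of each of the 8 genes (star, ± SE), of its nearest tested genes on the chromosome (squares) and of the other tested genes of its family or pathway list (circles; *Dlec1* and *Gm10451* have no list). The stars lie below 0 because the genes were chosen for it, and the 31 neighbours, not used in the choice, run from -0.68 to 1.56.

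Where genes overlap, reads may be shared, and the strand setting of the counting is not given in the sources used here. *Dnajc1* shares 749 exon bases with *Mllt10* on the other strand, whose log2 fold change was -0.06 (SE 0.10). *Wnk3* shares 523 with the antisense gene *A230072E10Rik* (68 reads over the 10 tumors), *Dlec1* 224 with *Acaa1b* (19 reads) and *Arsg* 48 with *Slc16a6*, which had -0.18 (SE 0.17).

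Promoters were read from RefSeq windows of 250 bases before and 50 after an annotated start, and all 8 genes were matched, with 2 windows each for *Pla2g5* and *Arsg*. The 8 short motifs were searched on both strands among 32851 windows of the same length. The E-box CACGTG was found in *Dnajc1* alone (7.15% of all windows held it), the shorter M-box core CATGTG in *Pla2g5* (14.2%) and GGGCGG, the GC box, in *Dnajc1* (35.7%). The TATA box letters TATAAA were present in *Wnk3* and *Nppb* (13.6%), and CCAAT in *Olfml1* and *Pla2g5* (37.4%). ACAAAG, a SOX motif, was in *Pla2g5*, *Dlec1*, *Gm10451* and *Arsg* (18.7%), and in 5 of the 10 windows. TGANTCA (7.81%) and TGACGTCA (1.79%) were in none of the windows, which says only that these letters are not there. No motif was common to the 8 genes. The windows of *Wnk3* and *Nppb* are shown because they hold TATAAA, and that of *Dnajc1* because it holds the E-box. *Wnk3* had 31.7% G and C, and *Dnajc1* 15 CG pairs, against medians of 52.7% and 7 over all windows. Capitals mark the motifs.

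Wnk3 chrX:151197828-151198127 (plus strand, GRCm38.p6): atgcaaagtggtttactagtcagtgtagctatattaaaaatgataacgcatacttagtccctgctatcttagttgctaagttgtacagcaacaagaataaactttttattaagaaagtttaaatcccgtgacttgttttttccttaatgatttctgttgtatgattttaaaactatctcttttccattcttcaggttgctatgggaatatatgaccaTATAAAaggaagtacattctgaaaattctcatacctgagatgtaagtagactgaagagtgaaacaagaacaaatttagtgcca

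Nppb chr4:147985650-147985949 (plus strand, GRCm38.p6): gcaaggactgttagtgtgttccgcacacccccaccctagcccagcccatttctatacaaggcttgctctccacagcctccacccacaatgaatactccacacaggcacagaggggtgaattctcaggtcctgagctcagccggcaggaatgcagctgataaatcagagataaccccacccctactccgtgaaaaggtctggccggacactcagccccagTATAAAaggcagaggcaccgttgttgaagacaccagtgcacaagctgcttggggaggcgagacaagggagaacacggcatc

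Dnajc1 chr2:18392781-18393080 (minus strand, GRCm38.p6): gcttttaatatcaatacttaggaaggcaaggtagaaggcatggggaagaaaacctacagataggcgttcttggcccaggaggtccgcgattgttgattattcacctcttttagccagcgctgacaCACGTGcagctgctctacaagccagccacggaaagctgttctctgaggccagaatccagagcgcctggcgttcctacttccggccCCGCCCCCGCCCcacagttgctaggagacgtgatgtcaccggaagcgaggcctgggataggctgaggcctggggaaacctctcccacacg

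The TATAAA of *Wnk3* begins 33 bases before the start and that of *Nppb* 31. In *Dnajc1* the E-box begins 125 bases before the start, and 2 GC boxes on the other strand, one after the other, begin 40 and 34 bases before it.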

How the data were processed

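Bulk RNA was sequenced from 10 B16F10 tumors, grouped by their labels. The submitters' processing notes name FastQC, Trimmomatic, HISAT2, HTSeq and mm10. The authors deposited raw read counts per gene without normalization (55401 gene rows, 107 symbols repeated). Summary rows, 35.3% to 44.6% of reads in 9 libraries and 64.1% in NTC replicate 1, were left out. The annotation and strand setting are not given in the sources used here. Depth was 11896643 to 28682130 reads, and precision was taken from the spread between tumors. Replicates are separate tumors by label, and p-values measure the spread between them.

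The 8 genes and all lists were chosen with earlier results of these data known. Counts were fitted with edgeR 4.0.16 (quasi-likelihood, TMM, filterByExpr) in R 4.3.3, with Benjamini-Hochberg adjustment over all genes tested, an adjusted p under 0.05 and, between groups, an absolute log2 fold change above 1. SE is the absolute coefficient divided by the square root of F. Log2 CPM used a prior count of 2, and list scores are means of it. Slopes on scores had group in the fit. Scores were compared by exact permutation over tumors. Alternatives were DESeq2 1.42.0, RLE, other filters, robust dispersion, a replicate block, score covariates, melanoma gene reads as library size, other scores, a prior count of 0.5 and each tumor left out.

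Named genes were the 8, their list genes and neighbours, and the 5 most alike in profile and 5 with the largest gap. GENCODE M21 (GRCm38) gave gene positions, 3' UTRs and lengths of exons, and 53186 of 55291 symbols matched it once. Procedures were tested on simulated data. Tables and figures used Python 3.11.15, pandas 2.3.3, numpy 2.4.6, scipy 1.17.1 and matplotlib 3.10.9.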

Additional observations from a re-analysis of the deposited data

Results flagged for a closer look

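A single library, NTC replicate 1, lay apart from the other 4 NTC tumors in 5 of 38 sets of values examined by Dixon's test at the 95% level, and chance alone gives about 1 in 20. Its reads on genes were 11896643, against 24145795 to 28682130 in the other NTC tumors. Its neutrophil score was 3.82 (others -1.62 to -0.62), its muscle score -0.65 (others -2.47 to -2.12) and its keratinocyte score -1.18 (others -3.66 to -3.31). Its melanoma score was 9.51, against 10.3 to 10.4 in the others. None of the 16 sets of CPM values of the 8 genes, 1 for each gene and group, had such a tumor.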

How the results depend on the processing

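The log2 fold changes of the 8 genes were below 0 in each of 19 alternatives, which says nothing about stability, since the genes were chosen for lying lower in every KO tumor. Genes called lower in KO (2) numbered 72 by DESeq2, 6 with at least 10 counts in every tumor, 4 with robust dispersion, 4 without the fold threshold, 5 with the leukocyte score and 23 with the melanoma score as a covariate, and 0 with melanoma gene reads as library size (1131 at an unadjusted p under 0.05). Leaving out 1 tumor gave 0 to 15: 15 without NTC replicate 1, 2 without KO replicate 4, 1 (*Wnk3*) without KO replicate 1 or 2, and 0 without any other (996 to 3230 genes at an unadjusted p under 0.05 in edgeR). Genes called higher (1) numbered 24 by DESeq2, 0 with at least 10 counts (1248 at an unadjusted p under 0.05 in either direction), 4 and 3 with the leukocyte and the melanoma covariate, and 1 to 2 with a tumor left out. Genes lower without overlap (233) numbered 69 with melanoma gene reads as library size and 265 to 632 with a tumor left out, 429 without KO replicate 4 and 632 without NTC replicate 1.

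The labels do not say whether equal replicate numbers mark paired tumors. Correlations of same-numbered tumors ran from -0.29 to 0.63, with 2 of 5 best with their own number, which does not settle it. With the replicate block 0 genes were called lower (1628 at an unadjusted p under 0.05 in edgeR), 2561 with the leukocyte score (5967 without the block) and 1039 with the melanoma score (5507 without it). The block took the leukocyte slope of *Olfml1* from 0.19 to 0.02 and turned the sign of those of *Nppb* (0.02), *Dlec1* (0.09) and *Dnajc1* (-0.06), none of them called. DESeq2 called 1 list gene where edgeR called 0. Of the 8 genes, 0 were called with the leukocyte score in 14 alternatives, in which 16.2% to 41.1% of all genes tested were called. In 2 alternatives 1 was called, *Pla2g5*, with no group term (36.8% of all genes) and without KO replicate 3 (33.6%). Genes called with the melanoma score were 1430 to 5565 with a tumor left out, the lowest without NTC replicate 1. The causes were not tested. Counts of 15 to 62 reads limit the precision of *Wnk3*, *Pla2g5* and *Dlec1* in KO tumors.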
